A study of Mus musculus with 28 samples.

Results

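Gene expression was compared between 1 mM and 25 mM glucose, 72 h after the medium change, in the line labelled NIH3T3 K-ras, called the K-ras line here. NIH3T3 is an immortalised mouse embryonic fibroblast line, and the labels name the K-ras line without giving its promoter, its allele or whether it is a single clone. The comparison holds 4 of the 28 arrays of the series, chosen by sample title: 2 arrays at 1 mM and 2 at 25 mM, numbered replicate 1 and 2 in each group and called biological replicates. Both groups had the same newborn calf serum and 4 mM glutamine. The question of the study was how the transcription of each line depends on the glucose supplied. All values are log2 ratios of a gene to its own median over the 28 arrays, so a value can be compared between arrays but not between genes, and a low value may lie near background.

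Cells burn glucose for energy and also draw on it for the sugar chains that are attached to secreted and membrane proteins in the endoplasmic reticulum (ER). When proteins misfold there, the unfolded protein response raises the chaperones and disulfide enzymes of the ER, and the related integrated stress response raises amino acid transporters, biosynthetic enzymes and the factors Atf4 and Ddit3. Oncogenic K-ras keeps the MAP kinase pathway active and favours glucose uptake and glycolysis, while cholesterol and fatty acids are built from acetyl-CoA, much of it made from glucose, by enzymes under the Srebf factors.

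The labels of the 4 arrays were first checked with Il33, an alarmin cytokine that is high in arrays of the K-ras line, and Krt14, a basal keratin that is high in arrays of NIH3T3. Il33 stood at 3.03 and 2.64 in replicates 1 and 2 at 25 mM, at -6.14 in replicate 1 at 1 mM and at 3.11 in replicate 2 at 1 mM. Krt14 stood at -4.32 and -4.16 at 25 mM, and at 2.22 and -3.95 at 1 mM. Of 288 genes that separated the lines by at least 2 log2 units at 25 mM and 24 and 48 h, replicate 1 at 1 mM lay nearer to the K-ras line in 11, against 262 and 281 for the 25 mM arrays and 229 for replicate 2 at 1 mM. The array labelled as replicate 1 of 1 mM thus carried the NIH3T3 profile, and it was kept under its label. Across the series 6 of 28 arrays lay with the other line.

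**Figure D1:**
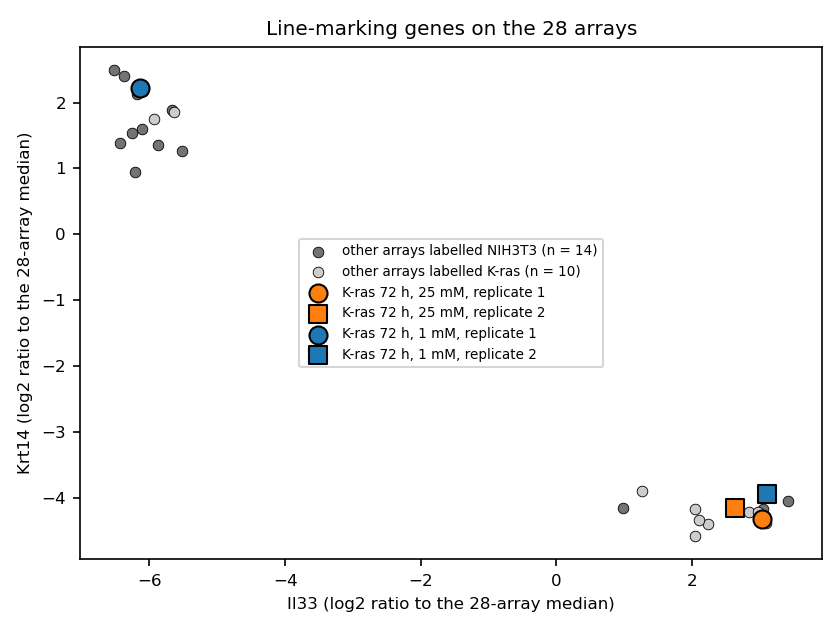
Log2 ratios of Il33 (horizontal) and Krt14 (vertical) to the 28-array median, 1 point per array, with the 4 arrays compared here drawn large and coloured by glucose. Replicate 1 at 1 mM lies at an Il33 value of -6.14 and a Krt14 value of 2.22, among the arrays labelled NIH3T3, and the other 3 large points lie at Il33 values between 2.64 and 3.11.

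The arrays of a group did not resemble each other closely. Across 18193 genes, the correlation was 0.23 between the 25 mM arrays and -0.12 between the 1 mM arrays. Replicate 1 at 25 mM stood apart in the hybridisation control probe sets, with a bioB mean of 3.07 and a bioC mean of 2.98, and its interquartile range over genes was 0.777 against 0.319 in replicate 2. Replicate 2 at 1 mM was most like the array labelled NIH3T3, 1 mM, 24 h, replicate 1 (r = 0.85), which carried the K-ras profile. These are correlations across genes, which are not independent replicates. Results below are given from all arrays and, where stated, from a fit without the 6 arrays that lay with the other line, in which the 1 mM group is the single replicate 2 and is assumed to vary like the other groups.

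At 72 h in the K-ras line, 33 genes differed between 1 mM and 25 mM glucose (limma, adjusted p under 0.05), 6 higher and 27 lower at 1 mM. That is 0.181% of 18193 genes, and 2791 genes had an unadjusted p under 0.05. Among the genes that fell were the actin-binding Actn1, Wdr1 and Triobp, the retinoic acid receptor Rarg and the sterol synthesis genes Srebf2 and Fdps. The largest fall was in Gas7 and the largest rise in Tmem47. In all 33 the arrays of the groups did not overlap, which held for 31.6% of all genes. The count was 138 (0.759%) without replicate 1 at 1 mM, 86 (0.473%) without replicate 2 at 1 mM and 2517 (13.8%) without replicate 2 at 25 mM. It was 0 without replicate 1 at 25 mM, with 1239 at an unadjusted p under 0.05. No gene passed when the fit held only the 4 arrays (812 at an unadjusted p under 0.05), when the arrays were quantile normalised again (1471) or when they were weighted by quality (851).

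Without the arrays that lay with the other line, 680 genes passed (3.74%), 277 higher and 403 lower. Of the 33 genes, 29 passed there too, and Wapl was among those that did not (adjusted p = 0.0787). In 401 of the 680, replicate 1 at 1 mM lay on the same side of both 25 mM arrays as replicate 2. For comparison, over all 18193 genes replicate 2 at 1 mM lay above both 25 mM arrays in 5606 and below both in 6218. In 5757 genes both 1 mM arrays lay on the same side of both 25 mM arrays. The difference of replicate 1 at 1 mM from the 25 mM mean correlated across genes with the difference of NIH3T3 from the K-ras line at 25 mM (r = 0.66), and that of replicate 2 did not (r = 0.06). Line and glucose cannot be told apart in replicate 1, so each called gene described below, and some of the others, is set beside its difference between the lines at 25 mM and 24 and 48 h, written as K-ras minus NIH3T3. Of the 33 genes, 17 differed by less than 0.5 between the lines at those times, 2 of them higher and 15 lower at 1 mM. A small value does not show that the lines were alike at 72 h. In the NIH3T3 arrays at 25 mM and 72 h, Actn1 stood at 0.37 and -0.80 and Errfi1 at -1.03 and -1.32. Errfi1 lay below the 25 mM arrays of the K-ras line there, while Gas7, at 2.90 and 1.60, lay above them. For Actn1, the value of 0.37 nearly equalled the 0.38 of replicate 2 of the K-ras line at 25 mM.

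Of the named genes that fell, several bind actin, a grouping made after their values were seen. The list of contractile genes and targets of the factors SRF and YAP, with 21 genes, had none past the threshold and a median of -0.01. Actn1, an actin cross-linking alpha-actinin, stood at 2.12 and 0.38 at 25 mM and at -2.04 and -1.72 at 1 mM. Both 1 mM arrays were low and close together, and both 25 mM arrays were higher, replicate 1 the most. Its log2 fold change was -3.13 ± 0.60 (SE, n = 2 against 2, adjusted p = 0.0478), with a line difference of 0.21. The other probe sets of Actn1 gave as little as -0.33.

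Wdr1, which promotes the disassembly of actin filaments with cofilin, stood at 0.24 and 0.01 at 25 mM and at -1.48 and -1.87 at 1 mM. It fell by 1.80 ± 0.35 (adjusted p = 0.0485), with both 1 mM arrays low and a line difference of 0.17. Triobp, an actin-bundling protein, stood at 0.53 and 0.06 at 25 mM and at -2.30 and -1.10 at 1 mM. It fell by 1.99 ± 0.31 (adjusted p = 0.033), and its line difference was 0.42.

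Fscn1, the bundling protein fascin of filopodia, had the same order of arrays without passing the threshold: 1.39 and 0.13 at 25 mM against -2.24 and -2.17 at 1 mM, a log2 fold change of -2.97 ± 0.76 (adjusted p = 0.0977). Klc1, a kinesin light chain, stood at 0.27 and -0.24 against -2.17 and -2.08, at -2.14 ± 0.54 (adjusted p = 0.0908). In both genes the 1 mM arrays lay close to each other and below both 25 mM arrays. One probe set of each gave a value of the opposite sign, 0.27 for Fscn1 and 0.25 for Klc1. Their line differences were -0.23 and 0.24.

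Gas7, a growth-arrest gene tied to actin and membrane shape, had the largest called change. It stood at 1.36 and -0.51 at 25 mM and at -4.91 and -3.12 at 1 mM, at -4.44 ± 0.81 (adjusted p = 0.0478). The 1 mM arrays were far below both others, but its 5 probe sets ranged up to 0.30. Its line difference was -0.22. Fgd4, a guanine nucleotide exchange factor for Cdc42, stood at 2.32 and 1.83 against 0.18 and -0.47, at -2.22 ± 0.41 (adjusted p = 0.0478). Its line difference was 1.77 and its probe sets ranged up to 0.29.

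Rarg, a nuclear receptor for retinoic acid, had the lowest adjusted p of the comparison. It stood at 0.48 and 0.36 at 25 mM and at -2.14 and -2.19 at 1 mM. The arrays of each group lay close together and far from the other group. It fell by 2.59 ± 0.36 (adjusted p = 0.0285), its 2 probe sets gave -2.59 and -1.84, and its line difference was 0.84.

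Signalling genes among the named falls were Errfi1, a feedback inhibitor of EGF receptors, Il1rap, the accessory chain of the interleukin-1 receptor, and Tcf3, a basic helix-loop-helix factor. Errfi1 stood at 1.16 and 0.62 against -1.82 and -0.89 (-2.24 ± 0.43, adjusted p = 0.0478). Il1rap stood at 1.74 and 0.82 against -0.72 and -0.64 (-1.96 ± 0.35, adjusted p = 0.0456), and 1 of its 5 probe sets gave 0.48. Tcf3 stood at 0.95 and 0.33 against -1.52 and -0.90 (-1.85 ± 0.36, adjusted p = 0.0478). In each, both 1 mM arrays lay below both 25 mM arrays, and the K-ras line was higher than NIH3T3, by 0.86, 0.87 and 0.51.

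Cyb5r3, a reductase that serves fatty acid desaturation and sterol synthesis, stood at 1.46 and 0.31 at 25 mM and at -2.00 and -1.22 at 1 mM, and fell by 2.50 ± 0.41 (adjusted p = 0.033). Lrrc17, a secreted leucine-rich repeat protein, stood at 1.39 and 2.18 against -0.14 and -0.52, and fell by 2.11 ± 0.40 (adjusted p = 0.0478). Both groups were apart in both genes. The line differences were 0.87 and 1.32. The 4 probe sets of Cyb5r3 ranged up to -0.20, and the other probe set of Lrrc17 gave 0.04.

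The 6 genes that rose were Tmem47, Larp1b, Strn, Tent4b, Ngdn and Wapl. Tmem47, a membrane protein of cell junctions, stood at -2.29 and -0.78 at 25 mM and at 1.16 and 1.61 at 1 mM. It rose by 2.92 ± 0.51 (adjusted p = 0.0411) with both 1 mM arrays high, its 2 probe sets gave 2.74 and 2.92, and its line difference was -1.07. Ngdn, which acts in ribosome biogenesis and translation control, stood at -1.15 and -0.23 against 0.55 and 0.77. It rose by 1.35 ± 0.26 (adjusted p = 0.0478) with a line difference of -0.16.

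Strn, the scaffold striatin, stood at -1.24 and -0.24 against 0.96 and 0.91 and rose by 1.67 ± 0.28 (adjusted p = 0.0402), although its probe sets ranged down to -0.27. Tent4b, a non-canonical poly(A) polymerase, stood at -1.16 and -0.62 against 0.45 and 0.73 and rose by 1.48 ± 0.28. Larp1b, an RNA-binding La-related protein, stood at -2.46 and -0.97 against 1.23 and 0.75, and Wapl, which releases cohesin from DNA, at -1.37 and -0.34 against 0.45 and 0.25. They rose by 2.70 ± 0.52 and 1.21 ± 0.23 (adjusted p = 0.0478 for Tent4b, Larp1b and Wapl). The line differences were -0.49 for Strn, -0.94 for Tent4b, -1.45 for Larp1b and -0.73 for Wapl. NIH3T3 was thus the higher line in all 4, and both 1 mM arrays, not only replicate 1, lay above both 25 mM arrays. The part of the line in the rise was not tested. In all 6 genes that rose, replicate 1 at 25 mM was the lowest array. Other probe sets of Larp1b and Wapl gave -0.11 and 0.04.

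**Figure D2:**
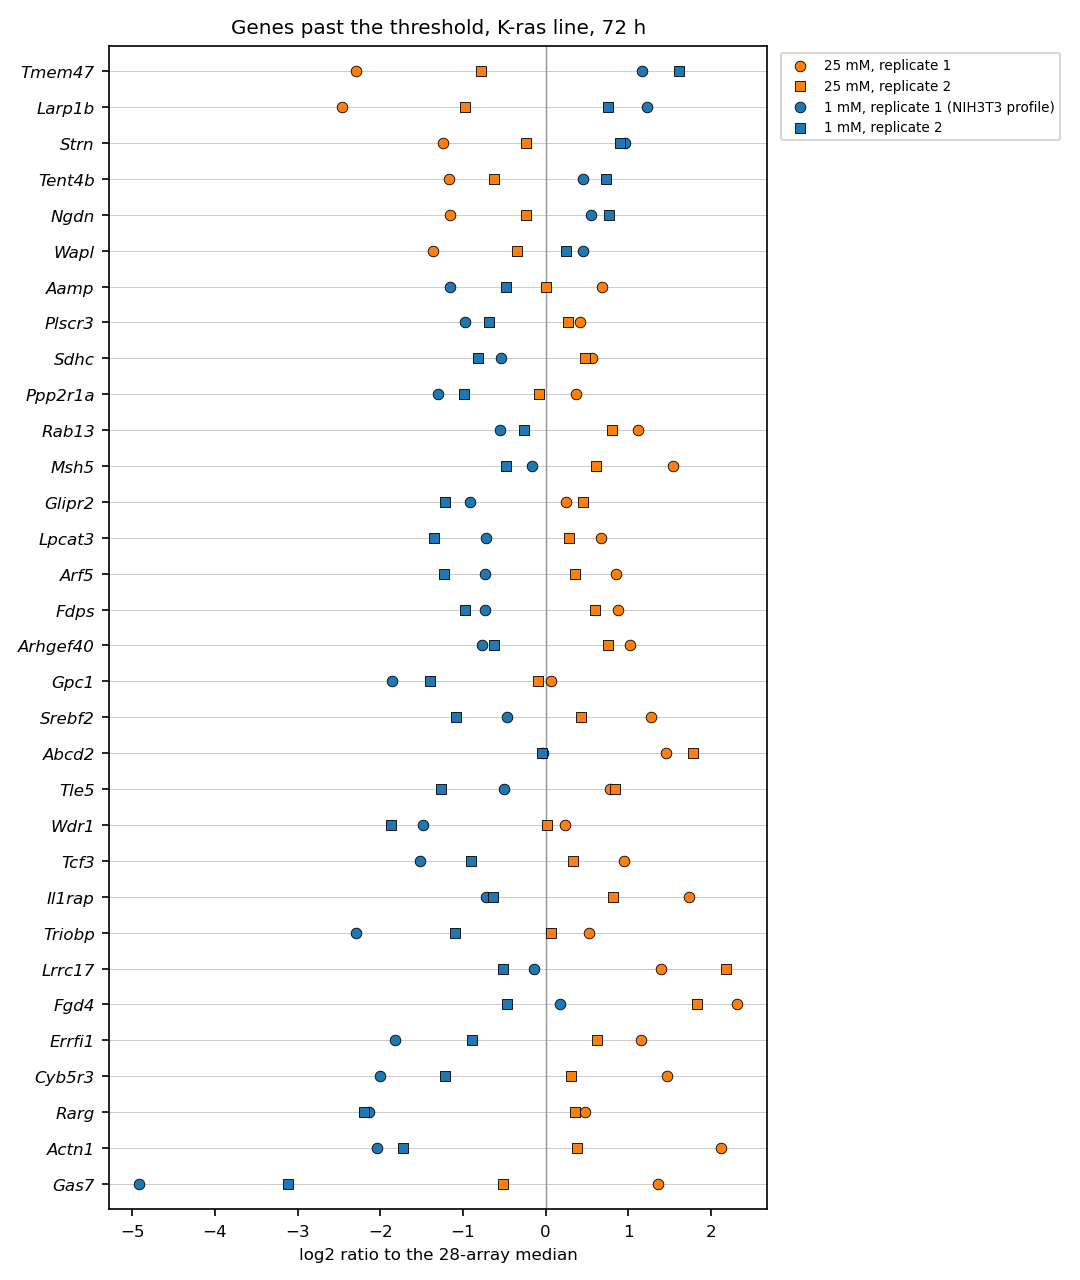
Log2 ratio to the 28-array median (horizontal) of the called genes with a gene name, 1 row per gene and 1 point per array, 25 mM orange and 1 mM blue, replicate 1 as circles and replicate 2 as squares. The blue points lie on one side of the orange points in every row, and Gas7 at the bottom has 1 mM values of -4.91 and -3.12.

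Over the 33 called genes, 24 had more than 1 probe set, and in 9 of these the probe sets differed in sign.

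Genes of cholesterol synthesis were lower at 1 mM. Of 21 measured, Fdps and Srebf2 fell and none rose (0.148% of all genes fell), and in 13 both 1 mM arrays lay below both 25 mM arrays, against 16% of all genes. The median log2 fold change was -0.99, against 0.00 over all genes. It was -0.51 for replicate 1 and -1.81 for replicate 2 at 1 mM, each set against the 25 mM mean, and the list's median line difference was 0.55.

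Srebf2 encodes the transcription factor that turns on the pathway. It stood at 1.28 and 0.43 at 25 mM and at -0.47 and -1.09 at 1 mM, with both 1 mM arrays below both others. It fell by 1.63 ± 0.31 (adjusted p = 0.0478), its line difference was -0.03, and its other probe set gave -1.12. Fdps, which makes farnesyl diphosphate, stood at 0.87 and 0.60 against -0.73 and -0.97, and fell by 1.59 ± 0.25 (adjusted p = 0.033). Its line difference was 0.55 and its other probe set gave 0.06.

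Without the arrays of the other line, 11 of the 21 fell (2.22% of all genes did) and none rose, Srebf2 and Fdps among them. The genes named here from that fit were chosen after their values were seen. Dhcr7, the last reductase of the pathway, stood at 1.09 and 0.29 at 25 mM and at 0.39 and -2.41 at 1 mM. Nsdhl, a sterol demethylation enzyme, stood at 1.24 and 0.67 against -0.59 and -1.69, and Mvd, mevalonate diphosphate decarboxylase, at 0.74 and 0.49 against 0.22 and -1.70. Replicate 2 at 1 mM was the lowest array in all 3, and the line difference of Nsdhl was 0.82. The log2 fold changes in that fit were -3.10 ± 0.42 for Dhcr7, -2.64 ± 0.33 for Nsdhl and -2.32 ± 0.38 for Mvd (adjusted p = 0.00161, 0.00104 and 0.00523).

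The early enzyme Hmgcs1 stood at 0.42 and 0.14 at 25 mM, at 0.40 in replicate 1 at 1 mM and at -1.95 in replicate 2. Sqle, squalene epoxidase, stood at 0.52 and 0.39 against 0.07 and -0.97. The groups overlapped in Hmgcs1 and not in Sqle. With all arrays, neither passed (adjusted p = 0.41 and 0.197).

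**Figure D3:**
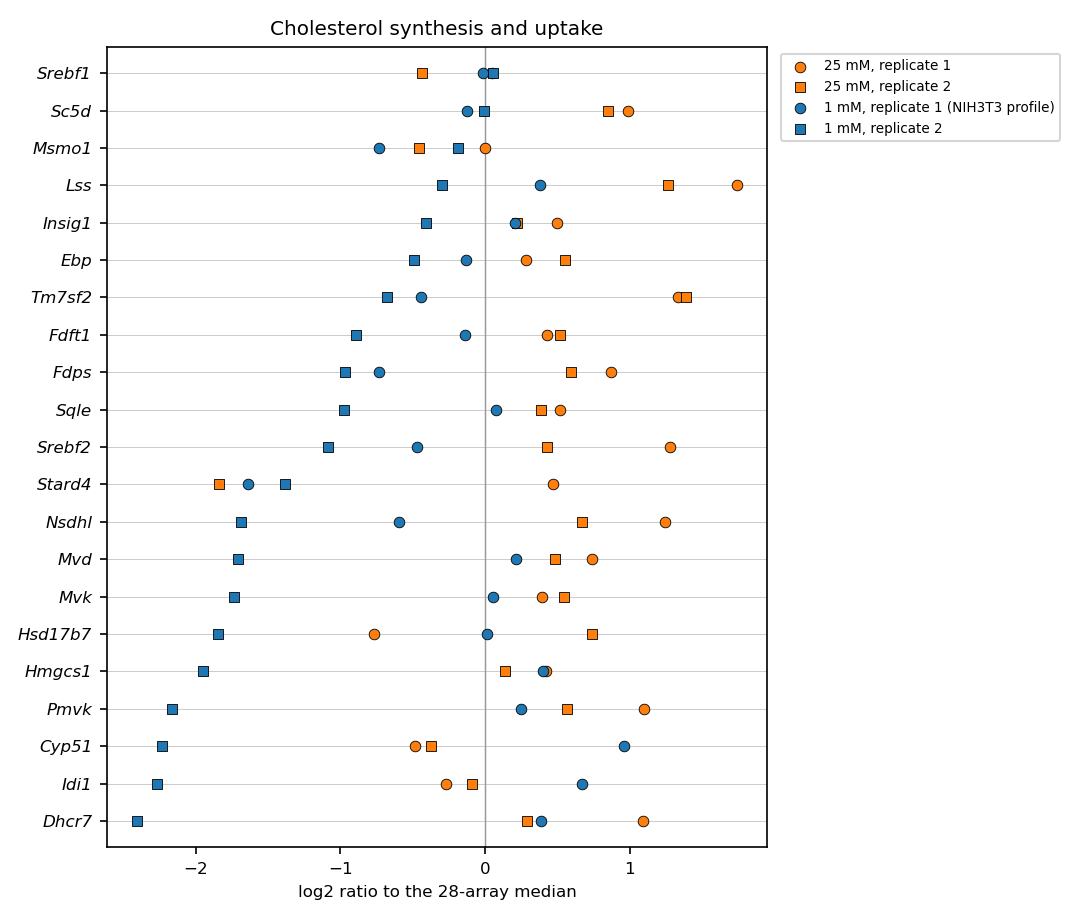
Log2 ratio to the 28-array median (horizontal) of the 21 measured genes of cholesterol synthesis and uptake, 1 row per gene and 1 point per array, 25 mM orange and 1 mM blue, replicate 1 as circles and replicate 2 as squares. Replicate 2 at 1 mM lies below both 25 mM arrays in 18 rows, against 34.2% of all genes, and replicate 1 in 14, against 31.5%.

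Of 15 genes of fatty acid synthesis, none passed with all arrays, 9 lay lower (16% of all genes did) and 3 higher (15.6%) in both 1 mM arrays, and the median was -0.59. Acly, ATP citrate lyase, which makes cytosolic acetyl-CoA, stood at 0.52 and 0.50 at 25 mM and at -0.88 and -0.95 at 1 mM (-1.43 ± 0.31, adjusted p = 0.0569). Fads2, a desaturase, stood at 0.60 and -0.43 against -2.25 and -1.74 (-2.08 ± 0.42, adjusted p = 0.0545). Both 1 mM arrays were low in both genes, and the line differences were 0.47 and -0.04. The 6 probe sets of Acly ranged up to -0.03 and the 3 of Fads2 up to -0.90.

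Genes of ER folding and the unfolded protein response were higher at 1 mM in replicate 2. Of 27 measured, none passed with all arrays, while 26 had a positive log2 fold change and the median was 1.09. Replicate 2 at 1 mM lay above both 25 mM arrays in 26, against 30.8% of all genes, and replicate 1 in 13, against 35.2%. The median difference from the 25 mM mean was 2.03 in replicate 2 and 0.29 in replicate 1. Without the arrays of the other line, 16 rose (1.52% of all genes did) and none fell. Many of these genes are known to carry the ER stress response element (ERSE) near their start site, to which the factors NF-Y and Atf6 bind.

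The promoters of 4 of them are shown, chosen after their values were seen, since all 4 rose in that fit and each holds the element. They are the 250 bases before the start site, 5′ to 3′ on the gene's strand, from RefSeq on GRCm38.p6, with matches to the ERSE in capitals, which lie on the opposite strand in Creld2 and Ero1b. Hspa5 lies at chr2:34771840-34772089 (plus strand), Creld2 at chr15:88819396-88819645 (plus), Ero1b at chr13:12565633-12565882 (plus) and Canx at chr11:50325674-50325923 (minus).
Hspa5: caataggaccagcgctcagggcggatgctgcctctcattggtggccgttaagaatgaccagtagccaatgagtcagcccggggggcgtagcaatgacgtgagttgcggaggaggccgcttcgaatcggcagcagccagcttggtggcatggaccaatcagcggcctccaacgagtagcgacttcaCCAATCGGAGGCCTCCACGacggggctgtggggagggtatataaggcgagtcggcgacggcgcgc
Creld2: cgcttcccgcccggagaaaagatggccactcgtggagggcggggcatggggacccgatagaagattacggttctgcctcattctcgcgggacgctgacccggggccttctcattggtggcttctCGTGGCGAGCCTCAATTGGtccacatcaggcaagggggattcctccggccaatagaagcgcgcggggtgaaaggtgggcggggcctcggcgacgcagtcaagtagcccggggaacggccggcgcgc
Ero1b: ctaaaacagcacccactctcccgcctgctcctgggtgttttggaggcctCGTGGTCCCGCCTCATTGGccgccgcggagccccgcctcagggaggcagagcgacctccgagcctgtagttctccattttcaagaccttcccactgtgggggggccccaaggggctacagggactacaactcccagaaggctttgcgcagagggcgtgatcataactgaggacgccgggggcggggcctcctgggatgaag
Canx: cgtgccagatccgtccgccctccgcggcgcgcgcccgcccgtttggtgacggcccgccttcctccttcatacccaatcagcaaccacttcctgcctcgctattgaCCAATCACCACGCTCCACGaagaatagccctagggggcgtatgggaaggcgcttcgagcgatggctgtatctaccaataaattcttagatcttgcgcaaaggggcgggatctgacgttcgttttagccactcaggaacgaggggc

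The ERSE was searched as CCAAT and CCACG with any 9 bases between them, on both strands in windows from 250 bases before to 50 after the start site. It was found in 9 of the 24 genes of the list that had a promoter sequence, against 0.12% of 32851 promoters. ERSE-II, searched as ATTGG and CCACG with any 1 base between them, was found in 2 of the 24, Dnajb11 and Herpud1, against 0.037%. In both searches the list was counted by gene and the background by single promoter, so the shares differ in unit. Neither was found in the promoters of 22 genes of the integrated stress response, 17 of cholesterol synthesis or 25 of the matrix. In the 11 genes with a match the median log2 fold change was 1.27, and replicate 2 at 1 mM lay above both 25 mM arrays in 11. In the 13 without a match these were 0.91 and 12. A match describes the letters and shows no binding.

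Hspa5, the chaperone BiP, stood at -0.09 and -0.05 at 25 mM, at -0.27 in replicate 1 at 1 mM and at 2.31 in replicate 2. Creld2, a secreted disulfide protein, stood at -0.15 and 0.50 against 0.21 and 2.77. Canx, the lectin chaperone calnexin, stood at -0.74 and -0.03 against 0.55 and 1.54. With all arrays its 3 probe sets ranged down to a log2 fold change of 0.35. In Hspa5 and Creld2 only replicate 2 at 1 mM was high, and in Canx both 1 mM arrays lay above both others. With all arrays the log2 fold changes were 1.09 ± 0.76, 1.32 ± 0.74 and 1.43 ± 0.36 (adjusted p = 0.512, 0.408 and 0.093). Leaving out the arrays of the other line, they were 2.38 ± 0.60, 2.60 ± 0.30 and 1.92 ± 0.36 (adjusted p = 0.046, 0.000666 and 0.0108).

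Ero1b, an oxidase that drives disulfide formation, stood at -1.08 and 0.04 at 25 mM and at 0.46 and 3.03 at 1 mM (2.26 ± 0.70 with all arrays, adjusted p = 0.157). Sdf2l1, a cofactor of BiP, stood at -1.35 and -0.52 against -0.94 and 2.69, and Dnajb9, another cofactor, at 0.53 and 0.26 against -0.30 and 2.76. Of these, only Ero1b had both 1 mM arrays above both 25 mM arrays. The line differences were -0.46 for Ero1b, -1.44 for Sdf2l1 and 1.17 for Dnajb9. With all arrays, the 3 probe sets of Ero1b ranged down to 0.22. In the fit without the arrays of the other line the 3 genes rose by 3.55 ± 0.39, 3.63 ± 0.42 and 2.36 ± 0.59 (adjusted p = 0.000424, 0.000639 and 0.0433).

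Among the sensors and factors, Xbp1, whose mRNA is spliced by Ern1, stood at 0.17 and 0.22 at 25 mM and at 1.16 and 1.55 at 1 mM. Ern1 itself stood at -1.33 and -0.46 against 0.66 and 1.43, and Herpud1, a part of ER-associated degradation, at -0.76 and -1.16 against 0.98 and 0.82. Both 1 mM arrays were higher in all 3, and none passed with all arrays (1.16 ± 0.50, 1.94 ± 0.64 and 1.86 ± 0.76, adjusted p = 0.288, 0.177 and 0.258) or without the arrays of the other line (adjusted p = 0.0639, 0.071 and 0.164). Herpud1 had a line difference of -1.70. The 5 probe sets of Ern1 ranged down to -0.03 and the 4 of Xbp1 down to 0.23.

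The array labelled NIH3T3, 1 mM, 24 h, replicate 1, which carried the K-ras profile, had a list median of 1.60 beside 1.64 in replicate 2 of 1 mM at 72 h. Hspa5 stood at 2.54 and Creld2 at 2.99 there. It was in no group of this comparison.

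**Figure D4:**
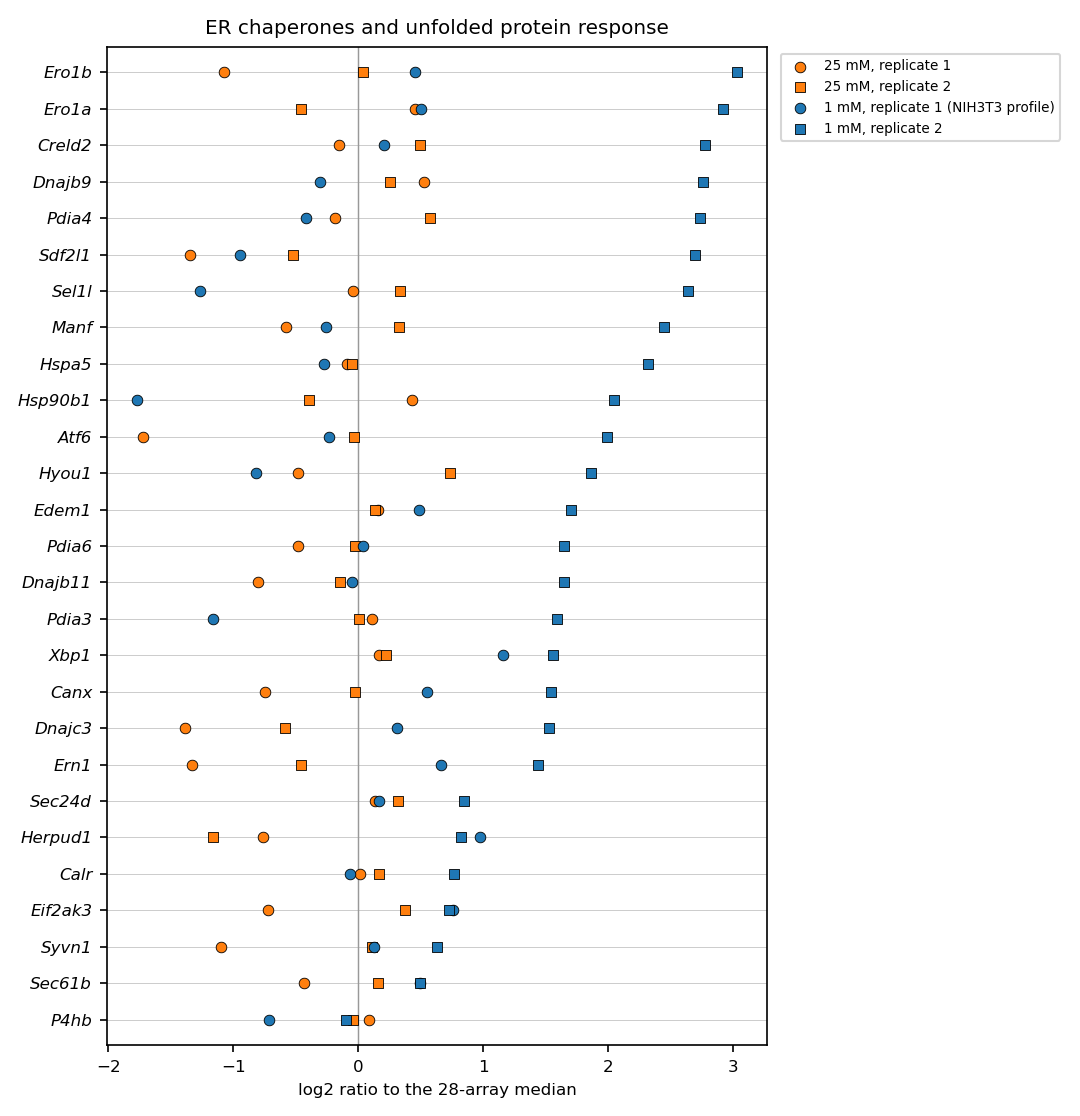
Log2 ratio to the 28-array median (horizontal) of the 27 measured genes of ER folding and the unfolded protein response, 1 row per gene and 1 point per array, 25 mM orange and 1 mM blue, replicate 1 as circles and replicate 2 as squares. The blue squares lie to the right of both orange points in 26 rows and the blue circles in 13.

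The integrated stress response list followed with a median of 1.11. None of its 27 genes passed with all arrays, in 16 both 1 mM arrays lay above both 25 mM arrays (15.6% of all genes did) and in 1 below. The median difference from the 25 mM mean was 0.56 in replicate 1 and 1.67 in replicate 2. In the fit without the arrays of the other line 3 rose (1.52% of all genes did) and none fell.

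Cth, which makes cysteine from cystathionine, stood at -0.28 and -1.83 at 25 mM and at 1.25 and 1.82 at 1 mM (2.59 ± 1.15, adjusted p = 0.296). Gpt2, mitochondrial alanine aminotransferase, stood at -0.29 and -1.15 against 1.26 and 1.48 (2.09 ± 0.75, adjusted p = 0.2). Slc7a11, the cystine transporter, stood at -0.57 and -0.41 against 0.81 and 2.80 (2.30 ± 0.77, adjusted p = 0.18), with a line difference of -0.03. The groups did not overlap in these 3, and the line differences of Cth and Gpt2 were -1.35 and -0.64.

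Ddit3, the stress factor CHOP, stood at 1.09 and -0.10 at 25 mM, at 0.43 in replicate 1 at 1 mM and at 4.01 in replicate 2. Trib3, a pseudokinase induced by it, stood at 0.62 and -1.26 against 0.86 and 3.04. Ppp1r15a, the phosphatase subunit that ends the response, stood at -0.01 and -0.33 against -0.78 and 3.63. The other probe set of Ddit3 gave a log2 fold change of 0.04 with all arrays. Replicate 2 at 1 mM was far above the other arrays in all 3 genes. Ppp1r15a alone of them rose without the arrays of the other line (3.80 ± 0.95, adjusted p = 0.0449).

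Asns, asparagine synthetase, stood at -0.66 and -0.78 at 25 mM and at 0.30 and -0.02 at 1 mM (0.86 ± 0.33, adjusted p = 0.232). Atf4, the factor that drives the response, stood at -0.55 and -1.03 against -0.19 and 0.98 (1.19 ± 0.73, adjusted p = 0.453), and its 3 probe sets ranged down to -0.17. The groups did not overlap in either. Chac1, which degrades glutathione, overlapped: 1.45 and -0.65 against 0.73 and 2.28.

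Of 20 antioxidant genes driven by Nrf2, none passed with all arrays and 5 rose without the arrays of the other line (1.52% of all genes did), while none fell. Hmox1, heme oxygenase, stood at 0.23 and -0.40 at 25 mM, at -0.34 in replicate 1 at 1 mM and at 3.19 in replicate 2. Gclm, a subunit of the glutathione-making ligase, stood at -0.04 and -0.01 against 0.01 and 2.10. Only replicate 2 at 1 mM was high. In that fit Hmox1 rose by 3.28 ± 0.83 and Gclm by 2.12 ± 0.35 (adjusted p = 0.048 and 0.00582).

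Matrix genes had different patterns in the 1 mM arrays. Of 35 collagens and other fibrous matrix genes, none passed with all arrays. In 16 both 1 mM arrays lay below both 25 mM arrays (16% of all genes did) and in 1 above (15.6%). The median was -0.98, from -0.33 in replicate 1 and -1.59 in replicate 2. Replicate 1 lay below both 25 mM arrays in 17 genes, against 31.5% of all genes, and above both in 10, against 35.2%. Replicate 2 lay below both in 27, against 34.2%, and above both in 3, against 30.8%. Leaving out the arrays of the other line, 12 fell (2.22% of all genes did) and none rose.

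Lum, the proteoglycan lumican, stood at 4.16 and 2.84 at 25 mM and at -0.16 and -0.04 at 1 mM (-3.60 ± 0.75, adjusted p = 0.0549). Thbs2, a matricellular thrombospondin, stood at 3.40 and 3.09 against -1.26 and 0.68 (-3.54 ± 1.40, adjusted p = 0.243). Both groups were apart, and the K-ras line was above NIH3T3 by 2.98 and 4.50. Both passed without the arrays of the other line (-3.54 ± 0.65 and -2.57 ± 0.60, adjusted p = 0.0101 and 0.0325).

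Col6a2 and Col6a1, chains of the microfibrillar collagen, and Col1a1, the main fibrillar chain, had another pattern. Col6a2 stood at 0.41 and 0.15 at 25 mM, at 0.78 in replicate 1 at 1 mM and at -4.06 in replicate 2. Col6a1 stood at 0.67 and 0.13 against 0.67 and -3.66, and Col1a1 at 0.02 and -0.02 against 0.34 and -4.00. Replicate 1 at 1 mM was at or above the 25 mM arrays and replicate 2 more than 3 log2 units below them. With the arrays of the other line left out, the changes were -4.34 ± 0.34, -4.06 ± 0.39 and -4.00 ± 0.43 (adjusted p = 6.16e-05, 0.000209 and 0.000419), and with all arrays none of the 3 passed (adjusted p = 0.348, 0.332 and 0.411).

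Of 10 fibroblast markers, none passed with all arrays, and the median was -0.02 in replicate 1 and -1.15 in replicate 2 at 1 mM. Vim, the fibroblast intermediate filament, stood at 0.11 and -0.19 at 25 mM and at -0.12 in both 1 mM arrays. Thy1, a surface marker, stood at 0.72 and 0.68 against 0.40 and -2.01. The marker lists of leukocytes (13 genes), endothelial (10), fat (7) and skeletal muscle (12) cells had medians between -0.12 and -0.03, and epithelial markers (12), Krt14 among them, 0.20. None of these genes passed with all arrays, and without a level none can be called absent. The part of other cell types in the results was not tested, and in these bulk samples fewer cells of a kind and less RNA per cell cannot be told apart.

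Inflammatory cytokines and chemokines had a median of -0.91, from -1.44 in replicate 1 and -0.71 in replicate 2. Of 24, none passed with all arrays, in 10 both 1 mM arrays lay below both 25 mM arrays (16% of all genes did) and in 2 above (15.6%). In the fit without those of the other line 7 fell (2.22% of all genes) and 1 rose (1.52%).

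Ccl2, a monocyte chemoattractant, stood at 1.97 and 2.77 at 25 mM and at -1.55 and -1.87 at 1 mM (-4.08 ± 1.23, adjusted p = 0.147). Ccl8, a related chemokine, stood at 3.87 and 2.01 against -0.26 and -0.69 (-3.42 ± 0.88, adjusted p = 0.0988), and Cxcl5, a neutrophil chemokine, at 1.21 and 0.87 against -1.33 and -4.88 (-4.15 ± 1.16, adjusted p = 0.119). All 3 were low in both 1 mM arrays. Their line differences were 2.53, 1.51 and 0.46. Nfkbia, the NF-kappaB inhibitor, stood at 0.77 and 0.43 against -1.74 and -1.37 (-2.16 ± 0.55, adjusted p = 0.0977). The log2 fold changes without the arrays of the other line were -4.23 ± 0.38 for Ccl2, -5.93 ± 0.61 for Cxcl5 and -1.98 ± 0.35 for Nfkbia (adjusted p = 0.000141, 0.000307 and 0.00803). Ccl8 did not pass in that fit (-3.64 ± 0.95, adjusted p = 0.0546).

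In the mitosis list, replicate 2 at 1 mM lay below both 25 mM arrays in 39 of 41 genes, against 34.2% of all genes, and replicate 1 in 10, against 31.5%. The median was -1.91 in replicate 2 and 0.10 in replicate 1. No member passed with all arrays or without the arrays of the other line. Aurka, a spindle kinase, stood at -0.04 and 0.13 at 25 mM and at -0.68 and -2.75 at 1 mM (-1.76 ± 1.02, adjusted p = 0.429). Prc1, which bundles spindle microtubules, stood at 0.02 and -0.30 against -0.70 and -2.43, and Ube2c, a ubiquitin carrier of the anaphase-promoting complex, at -0.29 and 0.08 against -0.87 and -2.25. The groups did not overlap in these 3, and replicate 2 at 1 mM was the lowest.

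Of 41 DNA replication genes none passed either, with a median of -0.08. Mcm3, a subunit of the replicative helicase, stood at 0.05 and -0.10 at 25 mM and at -1.87 and -1.86 at 1 mM (-1.84 ± 0.88, adjusted p = 0.33), and its 5 probe sets ranged up to 0.46. Its line difference at 24 and 48 h was 0.04. In NIH3T3 at 72 h, however, Mcm3 stood at -1.84 and -2.44 at 25 mM and at 0.49 and -2.25 at 1 mM. Replicate 1 at 1 mM, which carried the NIH3T3 profile, and replicate 2, which carried the K-ras profile, had nearly the same value. The part of the line in the values of Mcm3 was not tested. Of the cell cycle inhibitors, Cdkn1a stood at -1.65 and -0.43 against 0.10 and -0.40, and Cdkn1b at -0.37 and -0.74 against -0.86 and 0.08. The groups overlapped in Cdkn1b and nearly touched in Cdkn1a, whose other probe set gave -0.14.

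Genes of glucose use gave small list medians: -0.05 over 24 genes of glycolysis and transport, 0.19 over 9 of the pentose phosphate pathway and 0.28 over 16 hexosamine and glycogen enzymes, with none passing. Slc2a1, the glucose transporter GLUT1, stood at 0.23 and -0.10 at 25 mM and at 0.29 and 1.03 at 1 mM, and its 3 probe sets ranged down to -0.22. Ldha, lactate dehydrogenase, stood at 0.02 and 0.13 against -0.46 and 0.08. Hk1, a hexokinase, was low in both 1 mM arrays, at 0.09 and -0.04 against -0.99 and -2.09 (-1.57 ± 0.51, adjusted p = 0.169), with another probe set at 0.46 and a line difference of -0.90.

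Txnip, an inhibitor of glucose uptake that is induced by glucose, stood at 1.20 and 0.30 at 25 mM and at -0.20 and -2.49 at 1 mM. Both 1 mM arrays lay below both others, and the log2 fold change was -2.09 ± 1.08 (adjusted p = 0.362). Arrdc4, its relative, overlapped: -0.62 and -0.10 against 0.59 and -0.76.

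In the mitochondrion, Sdhc, a membrane subunit of succinate dehydrogenase, stood at 0.57 and 0.47 at 25 mM and at -0.53 and -0.82 at 1 mM. Both 1 mM arrays were low, and it fell by 1.20 ± 0.18 (adjusted p = 0.033) with a line difference of 0.35. It was the one called gene of 34 in the list of the TCA cycle and pyruvate entry, whose median was 0.04, or -0.01 after quantile normalisation of the arrays. Over 34 genes of respiratory complex I, none passed and the median was 0.37 in replicate 1 and -0.23 in replicate 2. Over 34 of complexes III, IV and V, it was 0.21 and -0.36.

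Genes that follow RAS and MAP kinase signalling differed between the 1 mM arrays. The median over 25 genes was -1.18 in replicate 1 and 0.12 in replicate 2, and the list's line difference was 0.79. Fosl1, an AP-1 factor, stood at 0.30 and 0.39 at 25 mM and at -1.90 and -0.24 at 1 mM. Etv4, an ETS factor, stood at 0.78 and 0.87 against -1.38 and -0.13, and Dusp6, the ERK phosphatase, at 0.07 and 0.25 against -1.01 and -0.01. Replicate 1 at 1 mM, which carried the NIH3T3 profile, was the lowest in all 3. None passed with all arrays (adjusted p = 0.251, 0.232 and 0.378), nor without the arrays of the other line (adjusted p = 0.324, 0.243 and 0.788).

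**Figure D5:**
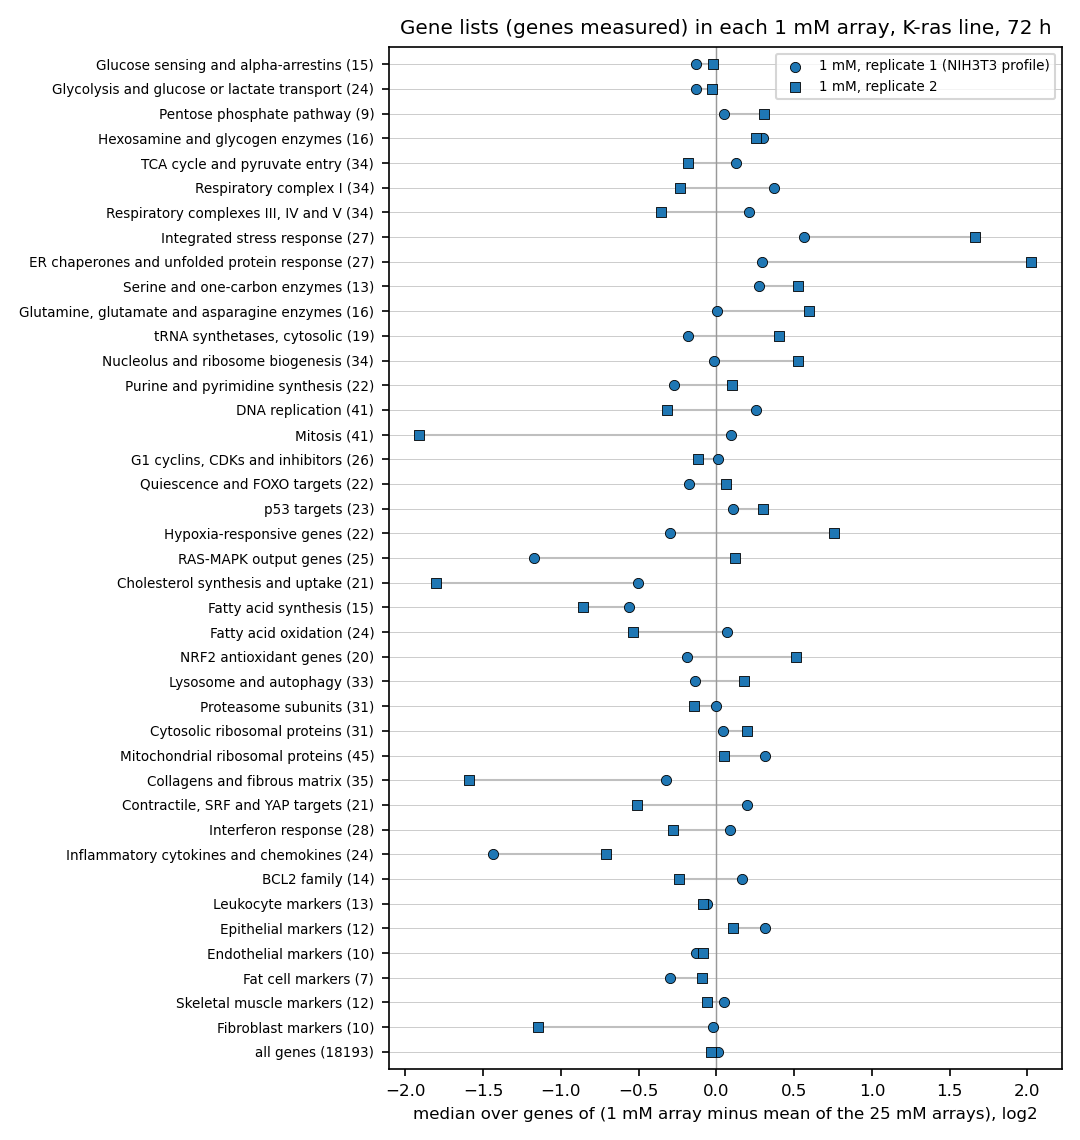
Median over the genes of each list of the difference between a 1 mM array and the mean of the 25 mM arrays (horizontal, log2), for replicate 1 (circle) and replicate 2 (square), with the number of genes measured in brackets. The 1 mM arrays lie farthest apart in the mitosis list, at 0.10 and -1.91, and all genes together lie near 0.

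The same contrast was read from other arrays. At 24 h in the K-ras line none of 18193 genes passed (0%), with 117 at an unadjusted p under 0.05. The median was -0.03 for the ER list, 0.04 for the integrated stress response, and 0.00 for cholesterol synthesis and for matrix genes. Actn1 stood at -0.06 there, Rarg at -0.09 and Srebf2 at 0.10 on the log2 scale. The difference between 72 and 24 h was not tested.

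In NIH3T3 at 72 h, 2 genes fell at 1 mM (0.011%), Ranbp3l, a Ran-binding protein, and Klhl9. The median was 0.45 for the ER list, 0.73 for the integrated stress response, -0.18 for cholesterol synthesis and -0.32 for matrix genes. These medians pool replicates 1 and 2 of NIH3T3 at 1 mM, which differed in some genes. Ddit3 stood there at -0.10 and 4.17, Ppp1r15a at -0.02 and 3.46, Hspa5 at -0.66 and 1.41 and Aurka at 0.15 and -3.53. Creld2, at 0.24 and 0.37, and Ero1b, at -0.12 and -0.17, were alike in them. Txnip had a log2 fold change of -3.46 in NIH3T3 (adjusted p = 0.5) and of -2.09 in the K-ras line. In the test of the difference between the lines at 72 h, no gene passed (0%), with 2220 at an unadjusted p under 0.05. The nearest were Rarg, with a difference of -3.20 ± 0.51, and Ranbp3l, with 3.03 and values in the K-ras line of -0.10 and 0.24 at 25 mM and 0.76 and 0.10 at 1 mM (adjusted p = 0.0755 for both). Without the arrays of the other line, 128 genes differed between the lines, 40 higher and 88 lower, with a single 1 mM array for the K-ras line.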

How the data were processed

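Total RNA of mouse cell cultures was hybridised to Affymetrix arrays, 1 array per culture. The deposited table holds log2 values for 45101 probe sets on 28 arrays, and the authors' processing named RMA, per the submitters' processing notes. Tested on the file, the median of the linear ratio over the 28 arrays was 1, within 0.001, in 45101 probe sets, so a deposited log2 value compares an array with the median array of that probe set and the level of a gene is removed. The number of arrays limits the precision, and signal over background is unknown. Which step used RMA, and in which version, is not given in the sources used here.

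Symbols came from the platform's annotation: 34945 probe sets carried a single symbol and were kept, while 932 with several symbols, 9160 unnamed and 64 control probe sets were left out. The probe set with the largest SD stood for each of 18193 genes. limma 3.58.1 in R 4.3.3 was fitted with 1 coefficient for each of 14 groups on all 28 arrays (14 residual degrees of freedom), with Benjamini-Hochberg adjustment over all genes and a threshold of 0.05. Errors are standard errors from this fit. No array was moved to another group. Fits were tested on simulated data.

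Members and the 40 gene lists (930 of 1004 entries measured) were chosen with earlier results of these data known, so lists are described by counts and medians. Genes were named as the 10 largest called rises and falls without overlap, the 10 with the largest gap in each direction among the 14305 genes with a line difference under 0.5, up to 4 called or else 3 members of a list, and 36 fixed genes. Further genes were chosen after their values were seen. A synonym was used for a list entry only where it was no current symbol. Promoters came from RefSeq (GRCm38.p6). Figures were drawn with matplotlib 3.10.9.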

Additional observations from a re-analysis of the deposited data

How the results depend on the processing

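With 2 arrays a group, the count of genes that passed in the K-ras line at 72 h moved from 33 to between 0 and 2517 as each of the 4 arrays was left out (138 without replicate 1 at 1 mM, 86 without replicate 2 at 1 mM, 0 without replicate 1 at 25 mM). It was 680 without the 6 arrays that lay with the other line and, chosen after seeing the data, 548 (148 higher) also without replicate 1 at 25 mM. It was 0 for replicate 2 against replicate 2 (2217 at an unadjusted p under 0.05), 0 in the fit of the compared groups, 0 after quantile normalisation again and 0 with array weights. It was 5 among genes with an SD at or above the median and 6 with the mean of all probe sets. Among genes with a line difference under 0.5 at 24 and 48 h it was 17. The cause was not tested. Deviations from the group means, matched by replicate number, correlated at -0.25 between the groups. Since replicate 1 at 1 mM carried the NIH3T3 profile, this cannot show whether the numbers paired the samples. With the replicate block 5 genes passed, Rarg, Triobp, Sdhc, Fdps and Msh5, and with the crossed block, chosen after seeing the data, 12. With the numbers crossed at 24 h none passed.

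At 24 h in the K-ras line the count was 0 under each alternative run. In NIH3T3 at 72 h it was 2, between 0 and 2 as 1 array was left out, 8 without the arrays of the other line, 1 with the replicate block and 1 among genes with the larger SD, 0 in the fit of the compared groups and after quantile normalisation, and 4 with array weights. The count of genes that differed between the lines at 72 h was 0, between 0 and 1590 as 1 array was left out, 128 without the arrays of the other line and 1, Ranbp3l, with the mean of all probe sets. The replicate block left it at 0.

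Some log2 fold changes took the opposite sign as 1 array was left out. The ranges were -0.20 to 2.38 for Hspa5, -0.69 to 2.36 for Dnajb9, -0.0080 to 3.63 for Sdf2l1, -0.065 to 3.51 for Ddit3, -0.61 to 3.80 for Ppp1r15a and -0.25 to 3.28 for Hmox1. They were -2.22 to 0.13 for Hmgcs1, -4.34 to 0.51 for Col6a2, -4.06 to 0.27 for Col6a1 and -4.00 to 0.33 for Col1a1. In these 10 genes the sign turned without replicate 2 at 1 mM. The ranges were -0.40 to 0.95 for Arrdc4, -0.53 to 0.0048 for Ldha, -0.30 to 0.64 for Cdkn1b, -8.97 to 0.28 for Il33 and -0.23 to 0.072 for Vim. With the arrays of the other line left out, Arrdc4 stood at -0.40, Ldha at 0.0048 and Il33 at 0.28. With the replicate 2 arrays only, and equally without replicate 1 at 25 mM in addition, Arrdc4 stood at -0.67, Ranbp3l at -0.13, Il33 at 0.47 and Vim at 0.070. With the mean of all probe sets Cdkn1b stood at -0.15.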

Other observations

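Genes outside the lists were led, in the fit without the arrays of the other line, by Taf7l, a testis-type subunit of the general transcription factor TFIID, and Avil, advillin, a villin-family actin-binding protein of sensory neurons. Both were chosen after their values were seen. Avil stood at -0.58 and -0.26 in the K-ras line at 25 mM and 72 h, at 0.36 in replicate 1 at 1 mM and at 4.61 in replicate 2. Taf7l stood at -0.06 and 0.12 against 0.31 and 3.89. Both 1 mM arrays lay above both 25 mM arrays, replicate 2 by far the most. They rose by 5.03 ± 0.38 and 3.86 ± 0.27 (limma, adjusted p = 6.16e-05 and 4.67e-05), and with all arrays the adjusted p was 0.226 and 0.318. In the array labelled NIH3T3, 1 mM, 24 h, replicate 1, which had the K-ras profile, Avil stood at 4.28 and Taf7l at 3.88.

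Among genes that differed little between the lines, some with the widest gaps between the groups belonged to no stress, sterol or matrix list. Slco2a1, a prostaglandin transporter, stood at -0.09 and -0.04 at 25 mM and at -2.12 and -2.87 at 1 mM (-2.43 ± 0.52, adjusted p = 0.0569). Its 4 probe sets ranged up to -0.14. Cacna2d1, a calcium channel subunit, stood at -0.72 and -0.35 against 1.27 and 1.40 (1.87 ± 0.58, adjusted p = 0.157), and its 5 probe sets ranged down to -0.23. Adh7, an alcohol dehydrogenase that can oxidise retinol, stood at -0.68 and -0.32 against 0.87 and 1.57 (1.72 ± 0.54, adjusted p = 0.157). The groups did not overlap in these 3, and none passed the threshold with all arrays.

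Fabp4, a fatty acid carrier of fat cells and macrophages, stood at 3.60 and 2.97 at 25 mM and at -0.13 and -0.01 at 1 mM (-3.35 ± 0.81, adjusted p = 0.0876). Its line difference was 2.19, its 4 probe sets ranged to -0.02, and the fat cell markers as a list had a median of -0.12 over 7 genes.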
